A study of Mus musculus with 4 samples.

Results

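Interferon-stimulated genes are the genes that cells switch on when an interferon tells them of a virus. The members here were 37 mouse genes listed by name, with no measured value in the rule, and were set against the 21755 protein-coding genes on the autosomes and X. Their open chromatin was read from DNase-seq, which cuts chromatin in nuclei with the nuclease DNase I and finds open stretches as places dense in cuts. The material was 4 libraries of mouse acute myeloid leukemia cells of the C57BL/6J strain, which the labels call cells differentiated in vitro. Biological replicate 1 had 2 technical libraries and biological replicate 2 had 2, and all carry the same donor identifier. The labels name no treatment, no interferon, no time point and no control, and give age as unknown and sex as not collected. Neither the driver of the leukemia nor the origin of the replicates (separate cultures or not) is stated in the labels.

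An interferon binds its receptor, and the kinases Jak1 and Tyk2 then activate transcription factors that include Stat2. The complex ISGF3, which holds Stat2 and Irf9, binds the interferon-stimulated response element (ISRE), a pair of GAAA words in the promoters of its target genes. Other interferon regulatory factors (IRFs) bind the same element, also in cells that have met no interferon, and type II interferon acts mainly at a different element, called GAS.

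The authors pooled the libraries of each biological replicate, so each replicate gave 1 list of peaks (150 bp windows with a score) and 1 list of hotspots (wider open regions with a −log10 q). No value per library and no spread between libraries was at hand. The lists differ in length: replicate 1 had 236802 peaks, with scores between 1 and 150, and replicate 2 had 67564, with scores between 2 and 138. The labels and files state neither how the score was made nor how deep the sequencing was. A score is therefore given as the authors' own value, together with its percentile within its own list, and is not compared between lists. A peak in replicate 1 alone can come from the longer list, and this cannot be told apart from a difference between the cells of the replicates. In bulk chromatin, a site open in few cells and a site weakly open in many cells cannot be told apart either. The labelled cell type was checked on its markers: 8 of 9 myeloid and leukocyte marker genes had a promoter peak in both lists, Elane being the exception with a peak in replicate 1 alone (score 131). None of 4 T cell, 4 B cell and 4 non-blood marker genes had one, and 1 of 3 erythroid marker genes did.

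The sequences that carry most of what follows are the ISRE matches and the peaks around them. They are given in the mouse build mm10, read 5′ to 3′ along the transcribed strand, in lower case with the ISRE core in capitals. That core is GAAANNGAAA, where N is any base, or its reverse complement, which reads TTTC, 2 bases, TTTC. The first set holds the shared promoter peaks with an ISRE core, the 8 of highest rank, each cut so that at most 30 transcribed bases are shown.
Usp18, chr6:121245796-121245935, + strand: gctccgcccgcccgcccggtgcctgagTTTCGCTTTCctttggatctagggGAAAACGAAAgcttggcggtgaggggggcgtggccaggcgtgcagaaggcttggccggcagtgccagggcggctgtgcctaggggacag
Eif2ak2, chr17:78882536-78882565, - strand: gagtccgccggGAAAACGAAAcagaagaga
Zbp1, chr2:173218916-173219065, - strand: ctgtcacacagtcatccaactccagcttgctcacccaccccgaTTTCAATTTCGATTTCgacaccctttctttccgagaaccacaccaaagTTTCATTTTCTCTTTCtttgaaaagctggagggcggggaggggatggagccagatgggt
Ifih1, chr2:62646204-62646233, - strand: gaagagaatcGAAACAGAAAccgatctgtg
Dtx3l and Parp9, chr16:35938962-35938991, - strand: ctggggaatcGAAACTGAAActttgcctct
Rsad2, chr12:26456456-26456605, - strand: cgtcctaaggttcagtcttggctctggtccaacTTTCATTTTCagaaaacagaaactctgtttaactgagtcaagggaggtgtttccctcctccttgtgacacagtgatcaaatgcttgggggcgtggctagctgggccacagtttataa
Oas3, chr5:120777632-120777765, - strand: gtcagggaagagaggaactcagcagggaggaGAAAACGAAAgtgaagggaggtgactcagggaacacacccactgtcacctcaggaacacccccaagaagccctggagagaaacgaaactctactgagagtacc
Ifitm2, chr7:140955958-140956105, - strand: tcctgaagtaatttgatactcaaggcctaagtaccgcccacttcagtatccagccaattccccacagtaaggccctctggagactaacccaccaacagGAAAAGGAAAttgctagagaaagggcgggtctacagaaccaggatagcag

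The second set holds some of the ISRE cores, with 6 bases on either side, from members without a shared promoter peak. Those of Ifit1, which had a shared promoter peak, stand beside them. It shows that the element stands close to the start of genes of either kind. Coordinates are those of the capitals.
Ifit1, chr19:34640785-34640794, + strand: cttcagTTTCACTTTCcagtct
Ifit1, chr19:34640804-34640813, + strand: tctcagTTTCAGTTTCtcactg
Ifit3, chr19:34583373-34583382, + strand: ggtaagTTTCACTTTCctcttc
Ifit3, chr19:34583407-34583416, + strand: agtctgTTTCAGTTTCtacttt
Gbp2, chr3:142620604-142620613, + strand: ttttagTTTCACTTTCactgtc
Gbp3, chr3:142559999-142560008, + strand: acacagTTTCAGTTTCtatttc
Isg15, chr4:156200887-156200896, - strand: ccgtagGAAAAGGAAAccgaaa
Isg15, chr4:156200875-156200884, - strand: gaaaccGAAACAGAAAatagct
Ifitm3, chr7:141010733-141010742, - strand: attcagGAAAAGGAAActtctg

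The third set holds promoter peaks of the highest rank without an ISRE core, cut in the same way. Capitals mark the CCAAT boxes of Stat2 (CCAAT), the ETS-IRF composite of Cmpk2 (GGAANNGAAA, here as its reverse complement) and the C/EBP match of Samhd1 (TTNCGNAA).
Stat2, chr10:128270376-128270525, + strand: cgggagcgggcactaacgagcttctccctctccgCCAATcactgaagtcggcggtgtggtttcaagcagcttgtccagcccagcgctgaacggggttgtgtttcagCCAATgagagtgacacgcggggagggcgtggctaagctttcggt
Cmpk2, chr12:26469260-26469289, + strand: ctgccttcacTTTCGTTTCCcggggatcct
Samhd1, chr2:157135236-157135305, - strand: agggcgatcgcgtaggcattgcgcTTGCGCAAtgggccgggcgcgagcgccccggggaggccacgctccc

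The first question was how many interferon-stimulated genes stood open with no interferon named in the labels. A promoter was the stretch within 1 kb of any annotated start of a gene, and a peak was shared when a peak of replicate 1 overlapped one of replicate 2 by at least 1 bp. A shared promoter peak was found at 29 of 37 interferon-stimulated genes (78.4%), against 58.2% of all protein-coding genes. In replicate 1 taken alone 35 of 37 members (94.6%) had a promoter peak, against 71.1% of all coding genes. In replicate 2 taken alone it was 30 of 37 (81.1%), against 58.8%. Hotspots gave 30 of 37 members (81.1%) with a shared one, against 59.5%. No peak was called at the promoters of Ifit3 and Ifi44 in replicate 1 or replicate 2 (2 of 37 members), against 28.8% of all coding genes. Of the members, 36 are annotated as protein coding and Mx2 is annotated as a polymorphic pseudogene.

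The shared promoter peaks of the members had lower median percentiles than those of all coding genes. Among the 29 members with a shared promoter peak, the strongest such peak had a median percentile of 90.9 in the replicate 1 list and 65.5 in the replicate 2 list. Over the 12658 coding genes with a shared promoter peak, the medians were 96.1 in replicate 1 and 89.6 in replicate 2. The mean of both percentiles had a median of 79.9 over the members (40.3 to 98.5), against 92.8 over all. When only peaks above the median score of their list were used, 20 of 37 members (54.1%) kept a shared promoter peak, against 51.3% of all coding genes. That share is near the background. Under the same limit 33 of 37 members (89.2%) had a promoter peak in replicate 1, against 62.7% of all coding genes, and 21 of 37 (56.8%) had one in replicate 2, against 51.6%. Under that limit the surplus thus stayed in replicate 1 and was small in replicate 2. The lists differ in length, and the part of that in the loss was not tested. A shared promoter peak stood at 28 of 37 members (75.7%), against 54.9%, with replicate 1 cut to the length of replicate 2. Hotspots at the highest −log10 q written, 100 in both lists, stood at 16 of 37 members (43.2%), against 49.5% of all coding genes, a share below the background. Spearman's rho between the percentiles of the lists was 0.870 across the 29 members and 0.841 across all 12658 genes, a description over genes that share the same libraries.

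**Figure D1:**
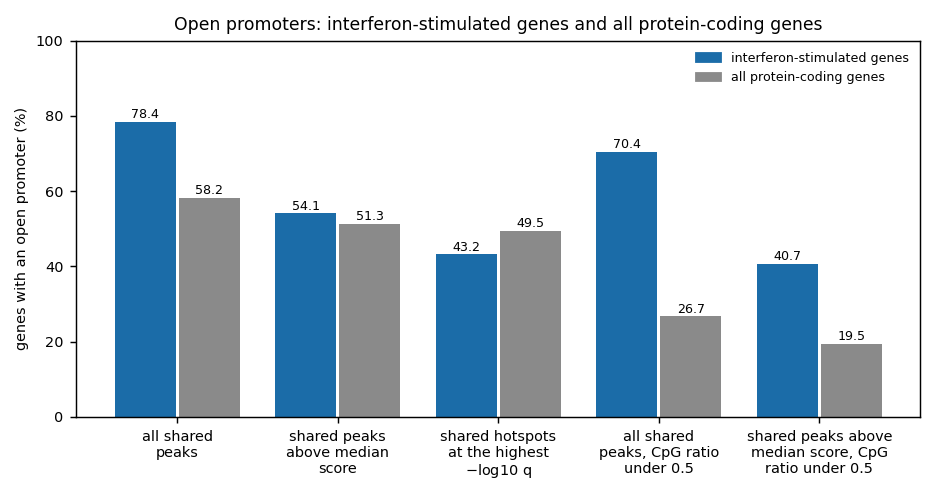
Share of genes (%) with an open promoter, for the 37 interferon-stimulated genes (blue, left) and all 21755 protein-coding genes (grey, right), under 5 ways of calling a promoter open; the last pair of settings holds the genes of low CpG ratio alone, 27 members and 9904 genes. The members stand at 78.4% beside 58.2% with all shared peaks, at 54.1% beside 51.3% with peaks above the median score, and at 70.4% beside 26.7% among genes of low CpG ratio.

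Most members start in DNA of low CpG content, the kind of promoter that is less often open. The CpG ratio is the number of CpG steps over the number that the base composition gives, here from 250 bases before to 50 after the main start. It had a median of 0.282 over the members, against 0.562 over all coding genes. Under 0.5 lay 27 of 37 members (73.0%), against 45.5% of all coding genes. Of those 27, 19 had a shared promoter peak (70.4%), against 26.7% of coding genes of that class. All 10 members with a ratio of at least 0.5 had one, against 84.5% of coding genes of that class. With peaks above the median score alone, 11 of the 27 members of low ratio (40.7%) kept a shared promoter peak, against 19.5%. In this class too the peaks of the members were weaker where present, with a median mean percentile of 71.2 (n = 19) against 82.7, and 89.3 (n = 10) against 94.1 at higher ratios. The lowest ratios were those of Dhx58 (0.0546), Isg20 (0.0551), Ifit3 (0.0554) and Gbp2 (0.0793), and the highest was that of Stat2 (0.917).

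Genes that bind or degrade foreign RNA formed the largest group, and 10 of 11 had a shared promoter peak. Over all coding genes the share was 58.2%, and the same share stands beside the smaller groups that follow. The Ifit proteins bind viral RNA and block its translation. Ifit2 scored 145 in replicate 1 and 44 in replicate 2, in the same window 79 bp before its main start. Ifit1 was the weakest shared promoter of all, at 89 and 21. Ifit3 had none, although its ISRE cores, printed above, read like those of Ifit1. Of the 32-base words within 250 bases of the Ifit3 start, 73.0% occur elsewhere in the genome, the highest share among the members, and the part of that in the missing peak was not tested.

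In the oligoadenylate synthetase family, the active enzymes sense double-stranded RNA and make the messenger that activates RNase L. All 5 listed genes of the family had a shared promoter peak, with replicate 2 scores of 24 to 37, around and under that list's median of 35. Oas2 scored 132 in replicate 1 and 28 in replicate 2, Oas3 129 and 37, and Oas1a 116 and 24. At Oas1a 53.2% of the 32-base words at the start occur elsewhere. Oasl1 scored 124 and 34 at its start. Oasl2 had its shared peak at an internal start, 5675 bp into the gene, with 103 and 35, and within 1 kb of its main start peaks of replicate 1 alone, at 48 and 93, the stronger with an ISRE core.

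The other effectors of the group scored higher in replicate 2. Eif2ak2 encodes PKR, the kinase that halts translation when it meets double-stranded RNA, and scored 136 in replicate 1 and 53 in replicate 2. Zbp1, a sensor of Z-form nucleic acid that triggers cell death, scored 139 and 48. The exonuclease gene Isg20 scored 141 and 68 at a peak 427 bp inside its main start, and 143 and 50 at a second peak 893 bp before it.

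Every one of the 5 RNA sensor and signalling genes had a shared promoter peak. Stat2, an ISGF3 subunit, scored 148 in replicate 1, level with Cmpk2 at the top of the members, and 101 in replicate 2, above every other member. Trim25, a ubiquitin ligase that acts on the RNA sensor RIG-I, scored 147 and 74. Ddx58, which encodes RIG-I itself, was lower, at 105 and 27. The related helicase gene Ifih1 scored 139 and 45. Dhx58, the third helicase of the family, scored 129 and 52 at an internal start and 123 and 45 at its main start.

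Of the 4 GTPase genes 2 had a shared promoter peak, a share near the 58.2% of all coding genes. The Mx proteins block incoming viral particles. Mx1 scored 115 in replicate 1 and 25 in replicate 2, and Mx2 122 and 23, in the lower part of the replicate 2 list for both. Gbp2, which acts on membranes of vacuoles that hold pathogens, had a peak at its start in replicate 1 alone (110). Its relative Gbp3 had a promoter peak in both lists that did not overlap, of 137 in replicate 1 and 59 in replicate 2, both beyond its main start and neither over its ISRE cores.

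Isg15 encodes a ubiquitin-like protein that is attached to other proteins, and its own promoter scored lower than those of its partners. It had 2 peaks in replicate 1 alone, of 104 and 64, the stronger over its ISRE cores. Usp18, which removes that protein and also restrains the interferon receptor, scored 135 in replicate 1 and 64 in replicate 2. Herc6, the mouse ligase for it, scored 138 and 40. Usp18 and Herc6 thus had peaks in both lists and Isg15 in the longer one.

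The nucleotide and radical SAM enzyme genes all had a shared promoter peak (3 of 3). Cmpk2, a nucleotide kinase of mitochondria, scored 148 in replicate 1 and 83 in replicate 2, and Samhd1, which breaks down the building blocks of DNA, 144 and 89. Rsad2, which encodes viperin and lies beside Cmpk2 on chromosome 12, scored 119 and 43. Its whole peak lies before the start.

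Among the membrane factors, Bst2 stood apart from the Ifitm genes. Bst2 encodes tetherin, which holds budding virus at the cell surface, and scored 144 in replicate 1 and 79 in replicate 2. Ifitm proteins block fusion of virus with the cell. Ifitm2 scored 129 and 32, whereas Ifitm3 (60) and Ifitm1 (44) had weak peaks in replicate 1 alone, at percentiles of 34.3 and 11.5 of that list. The 32-base words at the Ifitm2 start occur elsewhere at 25.3%.

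Parp9 and Dtx3l, whose products form a complex of ADP-ribosylation and ubiquitin ligation, start opposite each other on chromosome 16 and share their promoter peaks. The strongest scored 146 in replicate 1 and 67 in replicate 2. Another scored 137 and 43, and holds the ISRE core printed above. Parp14, a related enzyme gene nearby, had promoter peaks in replicate 1 alone, the strongest at 102.

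The last 4 members have separate roles. Ifi35 scored 144 in replicate 1 and 60 in replicate 2. Xaf1, an opponent of inhibitors of apoptosis, scored 117 and 27, and the chemokine gene Cxcl10 127 and 41. Ifi44 had no promoter peak and no shared peak within 50 kb.

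**Figure D2:**
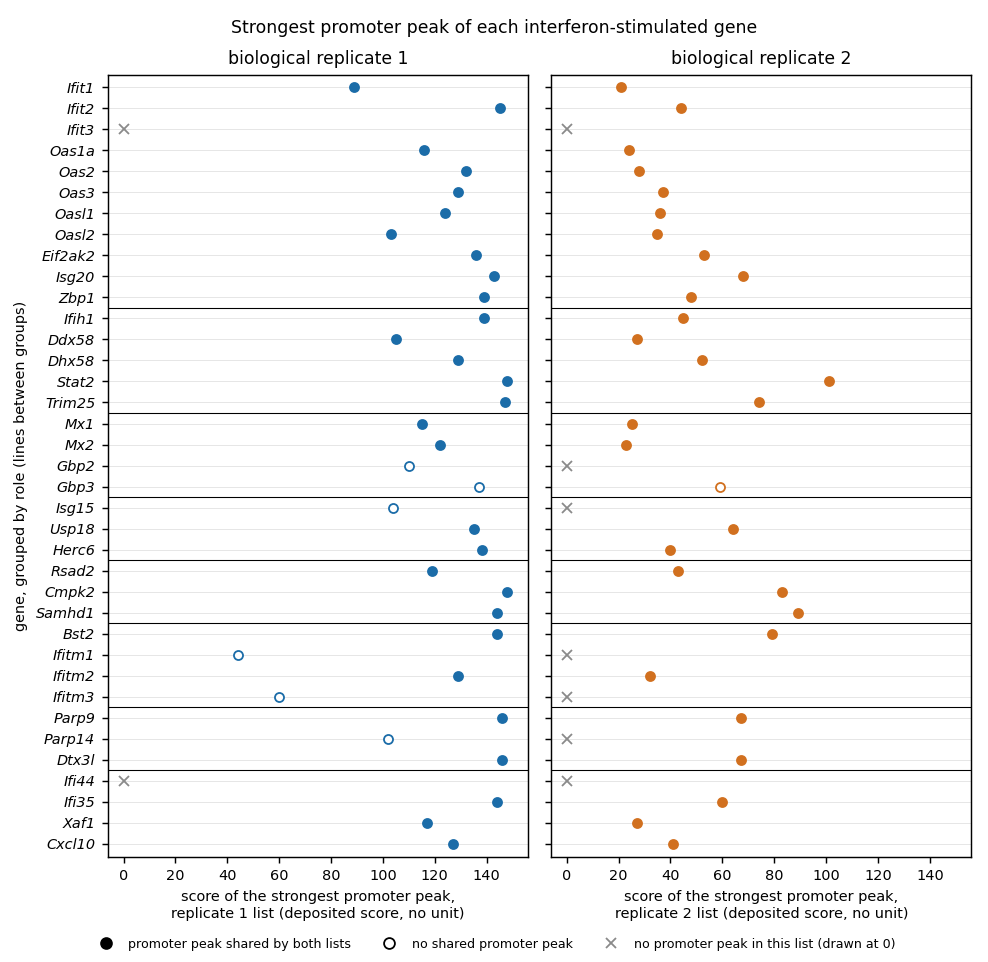
Score of the strongest promoter peak of each of the 37 genes in the replicate 1 list (left panel) and the replicate 2 list (right panel), in the unit of the deposited score, grouped by role; filled circles have a promoter peak shared by both lists, open circles do not, and crosses at 0 mark genes with no promoter peak in that list. Stat2 stands highest in replicate 2 at 101, and Ifit3 and Ifi44 carry crosses in both panels.

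The peaks lay close to where transcription starts. The centre of the strongest shared promoter peak was within 100 bp of the main start at 22 of 29 members (75.9%), against 53.4% of the 12658 coding genes with a shared promoter peak. The median distance was 60 bp for the members, against 90 bp. The exceptions with a peak more than 1 kb away were Oasl2, Dhx58 and Parp9. The members together had 101 promoter peaks in replicate 1, 44 in replicate 2, and 41 of replicate 1 that were shared.

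**Figure D3:**
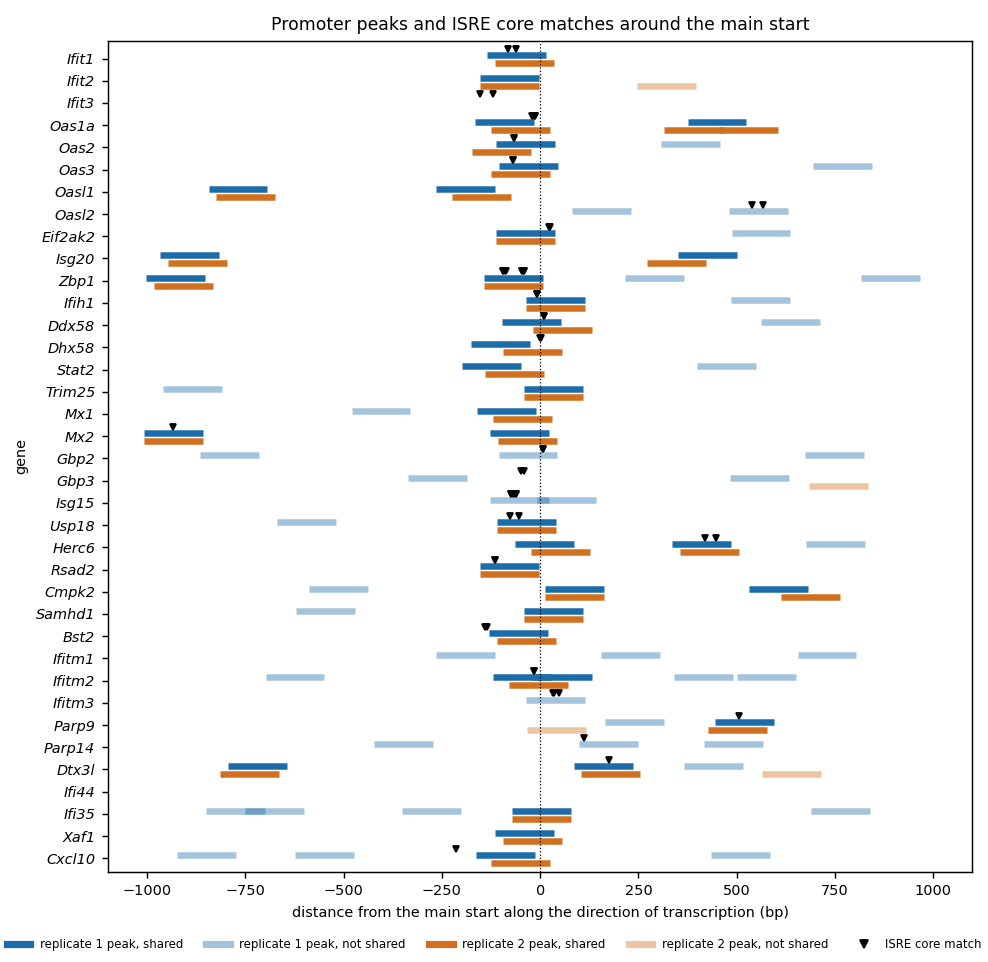
Promoter peaks of the 37 genes by distance from the main start in bp, within 1000 bp on either side, with replicate 1 in blue and replicate 2 in orange, each bar 150 bp long; pale bars are peaks not shared, and triangles mark ISRE core matches in promoter peaks or in the 250 bases before to 50 after the start. Many shared bars cover or touch the dotted line of the start, and others lie away from it, as at Isg20 and Oasl1. The matches of Ifit3 and Gbp3 lie over no bar.

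The next question was which sequence words these open promoters hold. Exact matches to 10 motifs were sought on both strands. They were the ISRE core (GAAANNGAAA), a longer ISRE (GAAANNGAAACT), which contains the core, the ETS-IRF composite (GGAANNGAAA), which can overlap it, GAS (TTCCNGGAA), generic ETS (CCGGAAGT), PU.1-type ETS (GAGGAAGT), C/EBP (TTNCGNAA), NF-kB by its consensus, the KLF/SP box (GGGCGG) and the CCAAT box (CCAAT). A match is a description of letters and not a bound site, and both ETS words share the stretch GGAAGT. Genes differ in how many shared promoter peaks they have, and so in how much sequence was searched. For members and all genes alike, the shared promoter peaks were searched in their replicate 1 windows. In the shared promoter peaks, an ISRE core stood at 15 of 29 members (51.7%), against 2.49% of the 12658 coding genes with such a peak. The longer ISRE stood at 8 of 29 (27.6%), against 0.300%, and the ETS-IRF composite at 5 of 29 (17.2%), against 2.81%. The 15 members with the core were Ifit1, Oas1a, Oas2, Oas3, Eif2ak2, Zbp1, Ifih1, Ddx58, Mx2, Usp18, Herc6, Rsad2, Ifitm2, and Parp9 and Dtx3l through the same peak. The replicate 2 windows of shared promoter peaks, which can be offset, also held an ISRE core at Dhx58, a longer ISRE at Oas1a and an NF-kB match at Ddx58, and these are not in the counts. The list was named after a response that this element is known to carry, so its surplus at these genes is no independent finding.

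General promoter words had lower shares among the members. The KLF/SP box stood in shared promoter peaks of 12 of 29 members (41.4%), against 62.7% of all, and the CCAAT box at 6 of 29 (20.7%), against 36.4%. The CpG content of the members was lower too, and its part in these shares was not tested. Generic ETS, PU.1-type ETS and GAS were found at 0 of 29 members, against 7.84%, 5.01% and 1.11% of all. C/EBP stood at 1 of 29, Samhd1 (3.45%), against 3.72%, and NF-kB in the replicate 1 windows at 1 of 29, Cxcl10 (3.45%), against 4.70%.

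**Figure D4:**
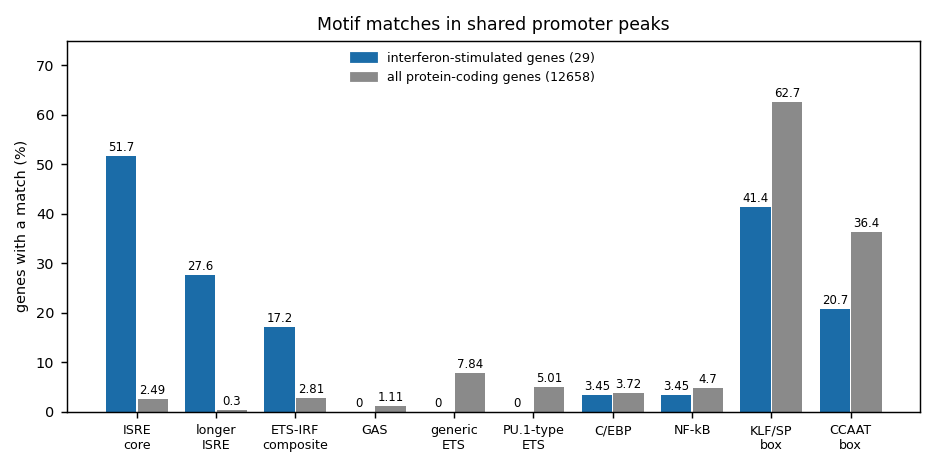
Share of genes (%) with an exact match to each of 10 motifs in a shared promoter peak, for the 29 interferon-stimulated genes with such a peak (blue, left) and the 12658 protein-coding genes with one (grey, right). The ISRE core stands at 51.7% of the members beside 2.49% of all genes, while the KLF/SP box stands at 41.4% beside 62.7%.

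Members with and without an ISRE core at the start were then set side by side. In the window from 250 bases before to 50 after the main start, 19 of 37 members (51.4%) held an ISRE core, against 3.65% of all coding genes, and 12 of 37 (32.4%) held the longer ISRE, against 0.368%. Of those 19 members 14 had a shared promoter peak (73.7%), against 49.1% of all coding genes with the core there. Of the 18 members without the core 15 had one (83.3%), against 58.2% of all coding genes, with the core or not. The mean percentile of the strongest shared peak had a median of 73.5 over the 15 members with the core in a shared peak and 85.0 over the other 14. Over all coding genes the medians were 91.1 with the core (n = 315) and 92.9 without it (n = 12343). At Mx2, Herc6, Parp9 and Dtx3l the strongest shared peak is not the one with the core, and Parp9 and Dtx3l have the same peak. Stat2, Cmpk2, Samhd1, Trim25, Bst2, Isg20 and Ifi35, all high in both lists, had no ISRE core in the replicate 1 window of a shared promoter peak. Some members with a core in a shared peak ranked high too, with mean percentiles of 91.2 at Parp9 and Dtx3l and 87.5 at Usp18. At Bst2 its cores lie just outside the peak of replicate 1, with first bases 146 and 140 bases before the start. An ISRE core at the start without a shared promoter peak was found at 5 members, namely Ifit3, Gbp2, Gbp3, Isg15 and Ifitm3.

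Within the start windows there were 30 ISRE core matches, some of them overlapping, with the median of their first bases at -66.5 relative to the start. At 14 of the 19 members a match lay inside a peak of replicate 1, and at 12 inside a peak of replicate 2. Those of Gbp2, Isg15 and Ifitm3 lay inside a peak of replicate 1 alone, and that of Dhx58 inside a peak of replicate 2 alone. The matches of Ifit3, Gbp3, Bst2 and Cxcl10 lay inside no peak. Of all coding genes only 80 held the longer ISRE in this window, and 12 of those 80 were members. A shared promoter peak stood at 40 of the 80, among them 8 of the 12 members.

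Open chromatin around the genes was the last readout. Shared peaks outside promoters, counted within the gene and up to 50 kb beyond each end, had a median of 5 per member (0 to 12), against 3 per coding gene. At least 1 was found at 35 of 37 members (94.6%), against 80.8% of all coding genes. The medians in replicate 1 alone were 20 against 15, and in replicate 2 alone 5 against 3. With 10 kb on either side the median was 1 for the members and 1 for all genes. Zbp1 had the most, 12, then Cxcl10 with 11. Ifitm1, Ifitm2 and Ifitm3 had 10 each, from windows that overlap in 1 gene cluster, and Oas3 and Parp14 had 9. Gbp3 and Ifi44 had 0. Of the 8 members without a shared promoter peak, Ifitm1 and Ifitm3 had 10, Parp14 9, Ifit3 4, Isg15 3, Gbp2 2, and Gbp3 and Ifi44 0.

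**Figure D5:**
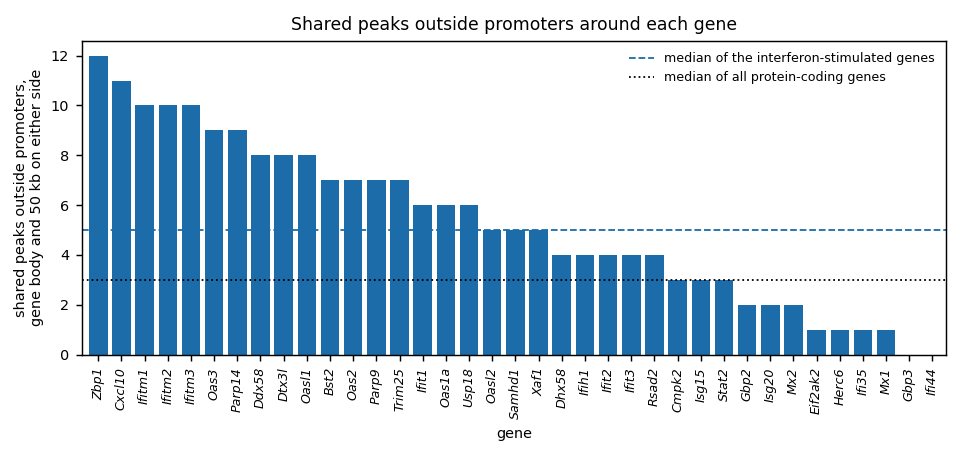
Number of shared peaks outside promoters within each of the 37 genes and up to 50 kb beyond its ends, sorted from high to low, with the median of the members (dashed, 5) and of all protein-coding genes (dotted, 3). The bars run from 12 at Zbp1 to 0 at Gbp3 and Ifi44, and neighbouring members share peaks.

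Counted once, these were 148 peaks, 37 of them within reach of more than 1 member and 14 inside a member's gene body. Their mean percentile had a median of 67.2, against 62.0 for all 42078 shared peaks outside promoters. The strongest lay 34867 bp downstream of Zbp1 (147 in replicate 1 and 86 in replicate 2), 12370 bp downstream of Bst2 (147 and 79) and 43921 bp downstream of Rsad2 (146 and 78). Which gene such a peak serves was not tested. An ISRE core stood in 8 of the 148 (5.41%), against 2.13% of all shared peaks outside promoters, and the PU.1-type ETS word in 11 (7.43%), against 7.49%.

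The strongest of the peaks with an ISRE core outside promoters are shown on the + strand of mm10, with the core in capitals. They were chosen after their values were seen.
Between Rsad2 and Cmpk2, chr12:26460236-26460385, + strand: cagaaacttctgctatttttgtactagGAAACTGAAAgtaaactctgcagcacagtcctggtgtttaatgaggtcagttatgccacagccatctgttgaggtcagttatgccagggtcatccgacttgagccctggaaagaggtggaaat
Upstream of Cxcl10, chr5:92368496-92368645, + strand: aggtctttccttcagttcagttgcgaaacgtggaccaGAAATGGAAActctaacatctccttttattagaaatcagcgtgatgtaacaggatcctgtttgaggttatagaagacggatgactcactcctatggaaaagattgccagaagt
Upstream of Usp18, chr6:121226916-121227065, + strand: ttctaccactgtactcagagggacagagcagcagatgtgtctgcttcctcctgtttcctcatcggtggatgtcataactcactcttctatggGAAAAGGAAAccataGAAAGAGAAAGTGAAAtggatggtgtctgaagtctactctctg
The first lies 3784 bp upstream of Rsad2, within reach of Cmpk2 too, and scored 144 in replicate 1 and 53 in replicate 2. That score stands above the promoter of Rsad2 itself (119 and 43) in both lists. The Cxcl10 peak lies 19607 bp upstream and scored 141 and 54, also above its promoter (127 and 41). The Usp18 peak, 18841 bp upstream, scored 137 and 45, and the promoter of Usp18 135 and 64.

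The genes that make, sense and pass on interferon show what the members' promoters stood beside. Of 12 interferon genes none had a shared promoter peak: Ifnb1 had one in replicate 1 alone (80) and the other 11 none. The repeated words at their starts were counted as for Ifit3. Found elsewhere in the genome were 79.6% at Ifnl2, 76.4% at Ifnl3, 73.0% at Ifna5 and 66.2% at Ifna1. The share was 28.3% at Ifna11, 24.9% at Ifna2, 10.4% at Ifna13, 3.62% at Ifna4 and 0% at Ifnb1, Ifne, Ifnk and Ifng. All 12 had a CpG ratio under 0.5, where 26.7% of coding genes had a shared promoter peak. The part of either in the missing peaks was not tested. Of 6 receptor chain genes 4 had a shared promoter peak, against 58.2% of all coding genes. All 6 had a CpG ratio of at least 0.5, where 84.5% of coding genes had such a peak. The 4 were Ifnar1 (149 in replicate 1 and 109 in replicate 2), Ifnar2 (132 and 59), Ifngr2 (149 and 71) and Il10rb (142 and 60). Ifngr1 had strong promoter peaks that did not overlap (150 and 104), and the type III receptor gene Ifnlr1 one in replicate 1 alone (104). The receptor for type I interferon thus had both its chain genes open.

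All 9 kinase and transcription factor genes of the pathway had a shared promoter peak, against 58.2% of all coding genes. All but Irf9 and Irf7 had a CpG ratio of at least 0.5, where the share of coding genes was 84.5%. The kinase genes scored 149 and 96 (Jak1), 149 and 82 (Jak2) and 148 and 81 (Tyk2) in replicates 1 and 2. Irf9 scored 148 and 78, beside 148 and 101 for its ISGF3 partner Stat2. Irf1 scored 149 and 94, Irf2 149 and 103, Irf3 150 and 101, and Irf7 140 and 56. Irf7, itself induced by interferon, was the lowest of the Irf genes named and the only one with an ISRE core in the replicate 1 window of a shared promoter peak. Among the other lists, a shared promoter peak stood at 8 of 10 genes of nucleic acid sensing (Tlr3 and Tlr7 had one in replicate 1 alone), at all 5 negative regulators (Socs1, Socs3, Pias1, Ptpn6 and Ptpn2) and at 19 of 27 further interferon-induced genes (70.4%), against the 58.2% of all coding genes given above.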

How the data were processed

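Peaks and hotspots are the authors' deposited lists for mm10, 1 of each per biological replicate, from libraries that the authors pooled per the deposited text files. The peak score is the deposited score, of unstated origin, and the hotspot value is the deposited −log10 q, capped at 100. For caller and depth: not given in the sources used here. Repeated peaks (48 and 5) were kept once. Genes came from GENCODE M21, sequence from GRCm38.p6, and no region ran past a chromosome end. Python 3.11.15, numpy 2.4.6 and pysam 0.24.0 were used, and the counting was tested on simulated data. The main start is the first start of the principal transcript. Percentiles were taken within each list.

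With 1 pooled list per replicate, no test was run, and counts of members are set beside all coding genes. Every member is named, and of the pathway lists the receptor, kinase and transcription factor genes. The values of some listed genes are not reported here. Members and lists were chosen with earlier results of these data known. The CpG limits, the hotspot ceiling and the low-ratio class above the median score were added after seeing the data.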

Additional observations from a re-analysis of the deposited data

How the results depend on the processing

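Of 47 alternative values 39 stayed within 1.5 times the reported one and 8 moved by more. That limit is wide: a count of 29 of 37 members could not rise past it. With peaks above the median score of their list, the fall from 29 to 20 members with a shared promoter peak lay within it. The share there was 54.1%, against 51.3% of all coding genes, where all peaks gave 78.4% against 58.2%. Peaks above the median score of their list gave a median of 2 shared peaks outside promoters per member (1 over all coding genes). They gave an ISRE core at 8 of the 20 members that kept a shared promoter peak, against 193 of the 11169 coding genes that kept one. Of the members of low CpG ratio 40.7% had a shared promoter peak with them, against 19.5%. A gene window of 10 kb gave a median of 1 shared peak outside promoters (1 over all) and one of 100 kb a median of 10 (6 over all). The longer ISRE stood at 8 of 29 members with a shared promoter peak (27.6%), against 38 of 12658 coding genes with one (0.300%). Hotspots at the highest −log10 q stood at 16 members (43.2%), against 49.5%. With 1 list left out at a time, 30 to 35 members had a promoter peak. That was 81.1% to 94.6%, against 58.8% to 71.1% of all coding genes. The median percentile ranged between 66.2 and 88.0, against 89.6 and 94.9 over all. The median of peaks outside promoters ranged between 5 and 20, against 3 and 15 over all. Without replicate 1 an ISRE core stood at 16 of 30 members with a promoter peak, against 354 of 12782 coding genes with one. Without replicate 2 it stood at 20 of 35, against 757 of 15477. The high end came each time without replicate 2. Promoter windows of 500 bp and 2.5 kb, the main start alone, an overlap of 75 bp and lists of equal length were also tried. They left 28 to 31 members with a shared promoter peak (75.7% to 83.8%), against 53.7% to 61.9% of all coding genes. CpG ratio limits of 0.4 and 0.6 gave 68.0% and 73.3% of low-ratio members, against 22.7% and 32.3% of all. No paired analysis was possible because each biological replicate is 1 pooled list and no groups are compared. With an unknown depth, a missing peak says that none was called and not that the site was closed.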
